A study of Mus musculus with 6 samples.

Results

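Secreted and membrane proteins are threaded into the endoplasmic reticulum (ER), folded there by chaperones and disulfide isomerases, and, if they fail to fold, drawn back out and degraded. Genes of this machinery were examined in mouse bone marrow with and without the miR-181a2b2 locus. The list held 41 genes and was given by name: 16 chaperones and foldases, 8 genes of ER-associated degradation, 7 stress sensors, transcription factors and feedback regulators, and 10 genes of the translocon and the signal peptidase. Each symbol matched 1 of the 49314 rows of the count table, and all 41 passed the filter on low counts.

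RNA came from bone marrow cells of mice on the HFSC diet that had undergone hindlimb ischemia, in which blood flow to a leg is cut off. The WT group had 3 libraries of the strain miR-181a2b2flox/flox (flox), in which the locus is flanked by recombination sites and is intact (replicates 1, 3 and 4). The KO group had 3 libraries of the strain miR-181a2b2-/- (KO), which lacks the locus (replicates 2, 3 and 4). Diet and surgery were common to all 6 libraries, so that neither was varied. The sources used here do not give the age of the animals, the way the deletion was made or whether animals were pooled. Nothing in the labels states that libraries of a group are separate animals, and the p-values therefore measure the spread between these libraries, which may be technical.

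The unfolded protein response is the signalling system that matches ER capacity to the load of client proteins. IRE1 (encoded by Ern1) splices the Xbp1 messenger RNA into the form that encodes an active transcription factor, ATF6 is cut free from the membrane to enter the nucleus, and PERK slows translation while favouring that of ATF4. Active XBP1 and ATF6 raise chaperone, translocon and degradation genes, and ATF4 raises CHOP (Ddit3) and GADD34 (Ppp1r15a), which ends the block on translation. In marrow the demand for this machinery is known to be high in plasma cells, which secrete antibody, and in granulocyte precursors, which fill their granules with proteases.

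Library totals lay between 33861440 and 40359093 counts, so that 3 counts, the most that a count of 0 allows, equalled 0.0743 to 0.0886 CPM (counts scaled to library size). These floors cover counting error only. The ER genes together took 0.686% to 0.763% of counts in WT and 0.710% to 0.936% in KO. Neutrophil markers were high, with 8 of 8 late neutrophil genes above all WT libraries in KO, against 14.4% of all genes (summed level 39383 to 50584 CPM in WT and 59044 to 73383 CPM in KO). All 8 primary granule genes of promyelocytes were likewise higher in every KO library (5067 to 5359 CPM and 6444 to 7756 CPM). Mature B cell markers summed to 220 to 345 CPM in WT, to 264 CPM in KO replicate 2 and to 94.8 and 109 CPM in KO replicates 3 and 4. Although the extraction text of the labels names white adipose tissue, adipocyte markers summed to between 3.07 and 7.95 CPM, and Plin1, Cidec and Lep were at 0 in at least 1 library. Transcripts of Y-linked genes lay between 184 and 231 CPM in every library, while Xist was above 1 CPM in WT replicates 3 and 4 and KO replicate 2 (3.5 to 6.64 CPM) and at most 0.220 CPM in the others. In bulk RNA a lower share of a cell type and less RNA per cell cannot be told apart, and the part of these markers in the results below was not tested.

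Levels were first compared between genes on a scale of CPM per kb of exon, since raw CPM favours long transcripts. The WT marrow ranked Calr, the calcium-binding lectin chaperone calreticulin, highest at 257 ± 33.4 CPM per kb (SD, n = 3). It was followed by P4hb, the disulfide isomerase PDI, at 151 ± 5.30 CPM per kb, Hsp90b1, the ER form of the HSP90 chaperone, at 139 ± 18.6 CPM per kb, Hspa5, the ER HSP70 chaperone BiP, at 135 ± 11.2 CPM per kb, and Pdia3, the isomerase that works with the lectin chaperones, at 134 ± 13.8 CPM per kb. The levels of Hsp90b1, Hspa5 and Pdia3 lay within their spread of each other, and P4hb fell from rank 2 to rank 5 when the longest transcript was used as the length. The highest member of the sensor class was Atf4 at 99.4 ± 6.0 CPM per kb, of the translocon class Sec61b at 57.6 ± 3.82 CPM per kb and of the degradation class Herpud1 at 38.4 ± 6.91 CPM per kb. The lowest was Derl3, a derlin of the retrotranslocation channel, at 1.18 ± 0.251 CPM per kb. The sensors themselves were low, with Ern1 at 11.7 ± 2.44 CPM per kb and Atf6 at 9.06 ± 0.296 CPM per kb.

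**Figure D1:**
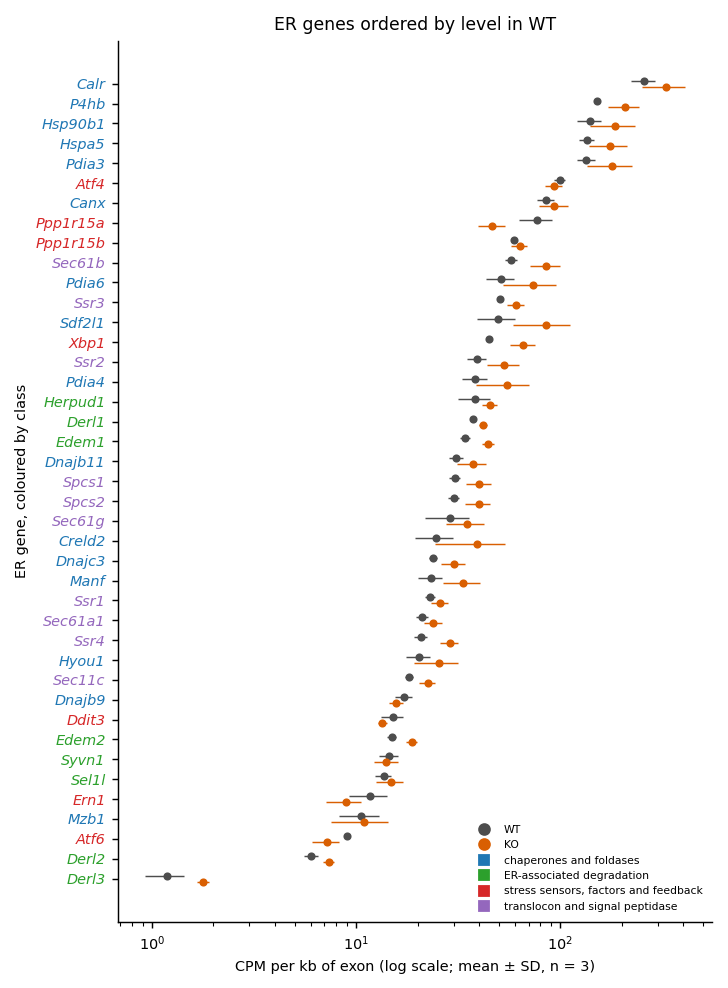
Level of each ER gene in CPM per kb of exon on a log axis, mean ± SD of 3 libraries, WT in grey and KO in orange, ordered by the WT level and with gene names coloured by class. Calr is at the top with 257 CPM per kb in WT, and Derl3 at the bottom with 1.18 CPM per kb.

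Most of the machinery had a higher mean level in KO marrow, but 4 of the 41 genes passed the test. Xbp1, Sec61b and Ssr4 rose and Ppp1r15a fell, which is 9.76% of the list, against 2.46% of all 16956 genes tested (0.938% higher and 1.52% lower). The 4 adjusted p values lay between 0.0427 and 0.0474, just under the threshold of 0.05 (edgeR quasi-likelihood test, Benjamini-Hochberg), and the next genes, Edem1 and Edem2, were at 0.0666. At an unadjusted p under 0.05, 18 of the 41 genes were higher (43.9%, against 11.7% of all genes) and 2 were lower, Atf6 and Ppp1r15a (12.2% of all genes were lower at that level). All KO libraries lay above all WT libraries for 15 of the 41 genes (36.6%, against 14.4% of all genes), and below them for 2 (14.7% of all genes). The log2 fold change (KO minus WT) was above 0 for 34 genes (82.9%, against 48.9% of all genes). Its median was 0.32 for the list and -0.01 for all genes tested. Calls moved with single libraries, in the list and over all genes alike. Of the list, 0 were called without WT replicate 1 (0.190% of all genes), without WT replicate 4 (0.216%) or without KO replicate 4 (0.186%), 1 without WT replicate 3 (Ppp1r15a; 1.16%), 5 without KO replicate 3 (5.27%) and 13 without KO replicate 2 (3.27%). With Xist above 1 CPM as a covariate 0 of the list and 1.23% of all genes were called, at log2 fold changes of 0.50 for Xbp1, 0.50 for Sec61b, 0.41 for Ssr4 and -0.73 for Ppp1r15a. DESeq2 called 15 of the list, against 12.6% of the genes to which it gave an adjusted p, and limma called 10, against 6.23% of all genes.

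**Figure D2:**
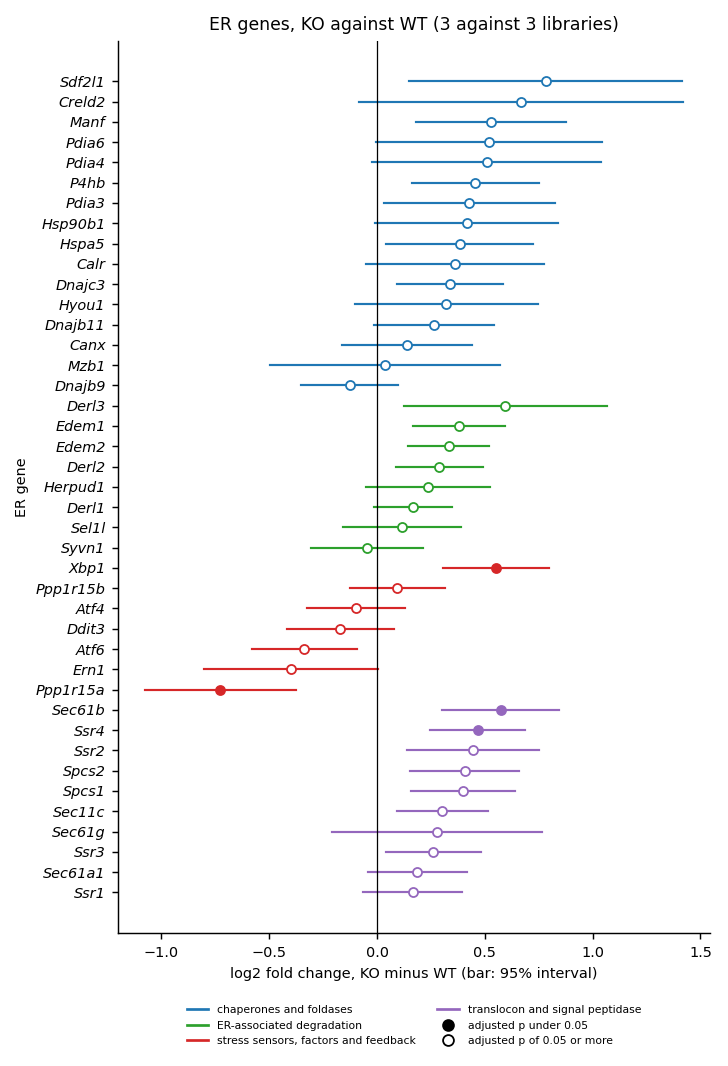
Log2 fold change, KO minus WT, of each ER gene with its 95% interval, grouped by class; filled circles mark an adjusted p under 0.05. The filled circles are Xbp1 at 0.55, Sec61b at 0.57, Ssr4 at 0.47 and Ppp1r15a at -0.73.

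Among the stress sensors and factors the genes went in opposite directions. Xbp1 (ENSMUSG00000020484, chromosome 11, 5520659 to 5525893, GRCm38) lay at 148, 148 and 142 CPM in WT replicates 1, 3 and 4 and at 189, 206 and 247 CPM in KO replicates 2, 3 and 4. The WT libraries were close together and all KO libraries were above them. The mean rose from 146 ± 3.5 to 214 ± 29.8 CPM (SD, n = 3 each), a log2 fold change of 0.55 ± 0.11 (SE) or 1.47-fold, with a 95% interval from 1.24 to 1.74-fold (edgeR adjusted p = 0.0427). Gene counts do not separate the spliced from the unspliced Xbp1 messenger RNA, so that these values give the total amount and not the active form.

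Ppp1r15a (ENSMUSG00000040435, chromosome 7, 45522916 to 45526268), which encodes the GADD34 subunit that directs a phosphatase to the initiation factor eIF2α, lay at 268, 184 and 225 CPM in WT replicates 1, 3 and 4 and at 159, 118 and 133 CPM in KO replicates 2, 3 and 4. All KO libraries were below all WT libraries, with a wide spread in WT. It fell by 0.73 ± 0.15 (SE) on the log2 scale, 1.65-fold, with a 95% interval from -1.08 to -0.38 (edgeR adjusted p = 0.0474). Immediate early genes, which are induced within minutes when cells are stimulated or handled, moved the same way between the groups: Fos, Fosb, Jun, Egr1, Ier2 and Atf3 summed to 3119 to 3837 CPM in WT and to 856 to 1408 CPM in KO. Within WT, replicate 1 had the highest Ppp1r15a level and the lowest sum of these genes, whereas within KO, replicate 2 had the highest of both. The part of these genes in the Ppp1r15a difference was not tested. Ppp1r15b, the constitutive counterpart of Ppp1r15a, did not pass the test, at 331, 330 and 332 CPM in WT and 319, 360 and 381 CPM in KO.

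The sensors Atf6 and Ern1 were at lower levels in KO without passing the test. Atf6 lay at 82.6, 86.8 and 81.6 CPM in WT replicates 1, 3 and 4 and at 58.9, 77.4 and 62.4 CPM in KO replicates 2, 3 and 4, with no overlap between groups and a log2 fold change of -0.34 ± 0.11 (SE, edgeR adjusted p = 0.111). Ern1 lay at 82.4, 119 and 85.9 CPM in WT and at 61.9, 88.6 and 67.3 CPM in KO, where KO replicate 3 was above WT replicates 1 and 4 (log2 fold change -0.40 ± 0.18, adjusted p = 0.216). Replicate 3 was thus the highest library of its group for both sensors. Xbp1, the substrate of IRE1, and Ern1, its gene, therefore had differences of opposite sign between the same libraries.

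The factors of the PERK arm did not pass the test. Atf4 lay at 251, 226 and 226 CPM in WT replicates 1, 3 and 4 and at 212, 203 and 242 CPM in KO replicates 2, 3 and 4, with a 95% interval of 0.80 to 1.09 times the WT level. Ddit3, which encodes the death-promoting factor CHOP, lay at 23.9, 29.7 and 24.2 CPM in WT and at 22.8, 22.0 and 24.3 CPM in KO, with an interval of 0.749 to 1.05 times. Groups overlapped for both genes (edgeR adjusted p = 0.593 and 0.374). ATF4 is controlled mainly at translation, which messenger RNA levels do not show. Over the 7 genes of the class 1 rose, 1 fell and 5 did not pass. Of all genes tested 0.938% rose and 1.52% fell. The median log2 fold change of the class was -0.17.

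**Figure D3:**
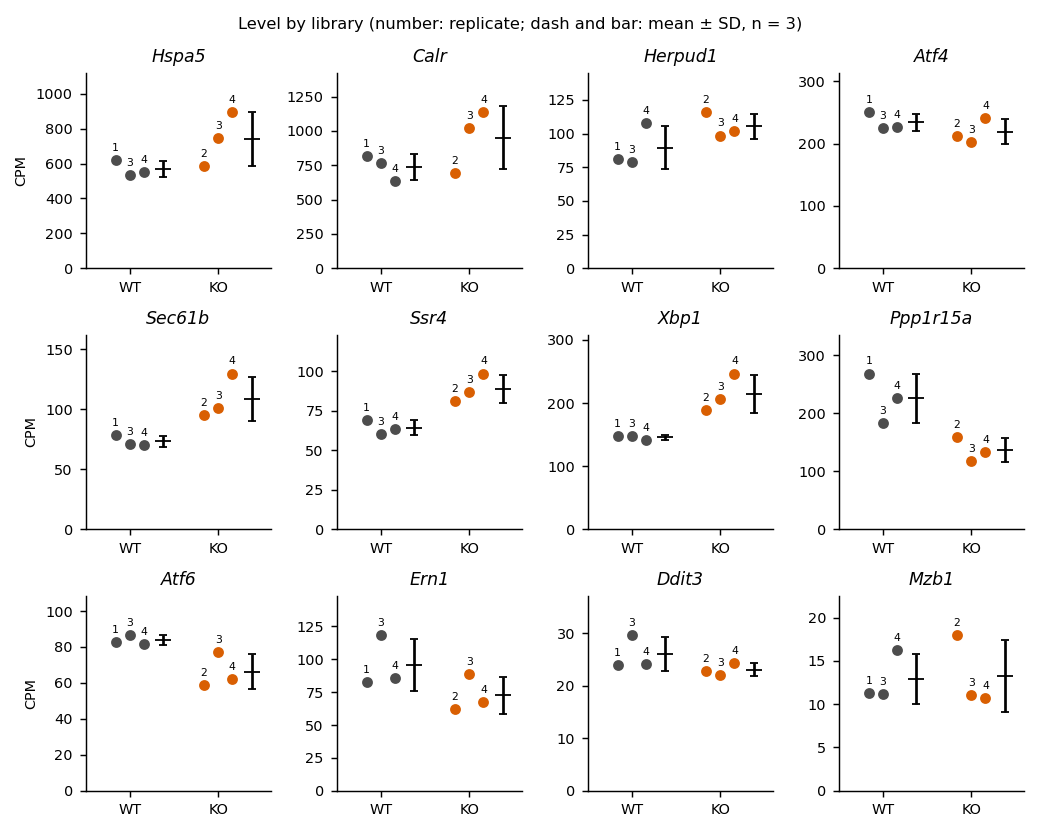
CPM of 12 ER genes in each library, WT in grey and KO in orange, numbered by replicate, with the mean and SD of 3 libraries at the right of each group. Xbp1, Sec61b and Ssr4 have every KO point above every WT point, Ppp1r15a and Atf6 have every KO point below, and for Hspa5 and Calr KO replicate 2 lies among the WT points.

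Chaperones and foldases had a class median of 0.40, but 0 of the 16 passed the test in edgeR (2.46% of all genes did). An unadjusted p under 0.05 was reached by 6, all higher (against 11.7% of all genes). DESeq2 called 5, against 12.6% of the genes to which it gave an adjusted p, and limma 2, against 6.23% of all genes. Hspa5 (ENSMUSG00000026864, chromosome 2, 34771970 to 34777547), the chaperone that holds the sensors inactive while it is free, lay at 623, 535 and 549 CPM in WT replicates 1, 3 and 4 and at 584, 749 and 895 CPM in KO replicates 2, 3 and 4. KO replicates 3 and 4 were above all WT libraries and KO replicate 2 was among them. Its log2 fold change was 0.38 ± 0.15 (SE), 1.30-fold with a 95% interval from 1.03 to 1.65-fold (edgeR adjusted p = 0.166). Calr lay at 819, 766 and 632 CPM in WT and at 693, 1022 and 1137 CPM in KO, the same arrangement (log2 fold change 0.36 ± 0.18, adjusted p = 0.261).

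This arrangement recurred through the class. KO replicates 3 and 4 were both above all WT libraries for 14 of the 16 genes, while KO replicate 2 was within the WT range for 11, above it for 4 and below it for 1. KO replicate 4 was the highest library for 14. The shares of all genes with these arrangements were not counted, so these counts have no background beside them. Relative to the WT mean, the class median was 0.48 in KO replicate 3 and 0.66 in KO replicate 4 on the log2 scale and -0.0040 in KO replicate 2, and the WT libraries lay at 0.14, 0.04 and -0.16 (replicates 1, 3 and 4). Sdf2l1, a partner of BiP that delays protein aggregation, had the largest log2 fold change of the list at 0.78 ± 0.26 (SE, adjusted p = 0.144), with 63.3, 59.5 and 41.9 CPM in WT and 62.7, 100 and 120 CPM in KO. Creld2, a stress-induced ER protein, had 0.67 ± 0.31 and Manf, a secreted factor that binds BiP, 0.53 ± 0.15. The isomerases Pdia6, Pdia4, P4hb and Pdia3 had 0.52, 0.51, 0.46 and 0.43, and Hsp90b1, Dnajc3, Hyou1, Dnajb11 and Canx between 0.14 and 0.42. Of all 16, P4hb, Manf and Dnajc3 had every KO library above every WT library, against 14.4% of all genes. Without KO replicate 2 the class median was 0.57. In that fit 7 of the 16 were called (Pdia3, Pdia4, Pdia6, P4hb, Sdf2l1, Manf and Dnajc3), against 3.27% of all genes. Without KO replicate 4 the class median was 0.25 and 0 were called (0.186% of all genes). The libraries also differed in markers: the primary granule genes summed to 6444 CPM in KO replicate 2, 7337 CPM in KO replicate 3 and 7756 CPM in KO replicate 4, and the part of this in the chaperone values was not tested.

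**Figure D4:**
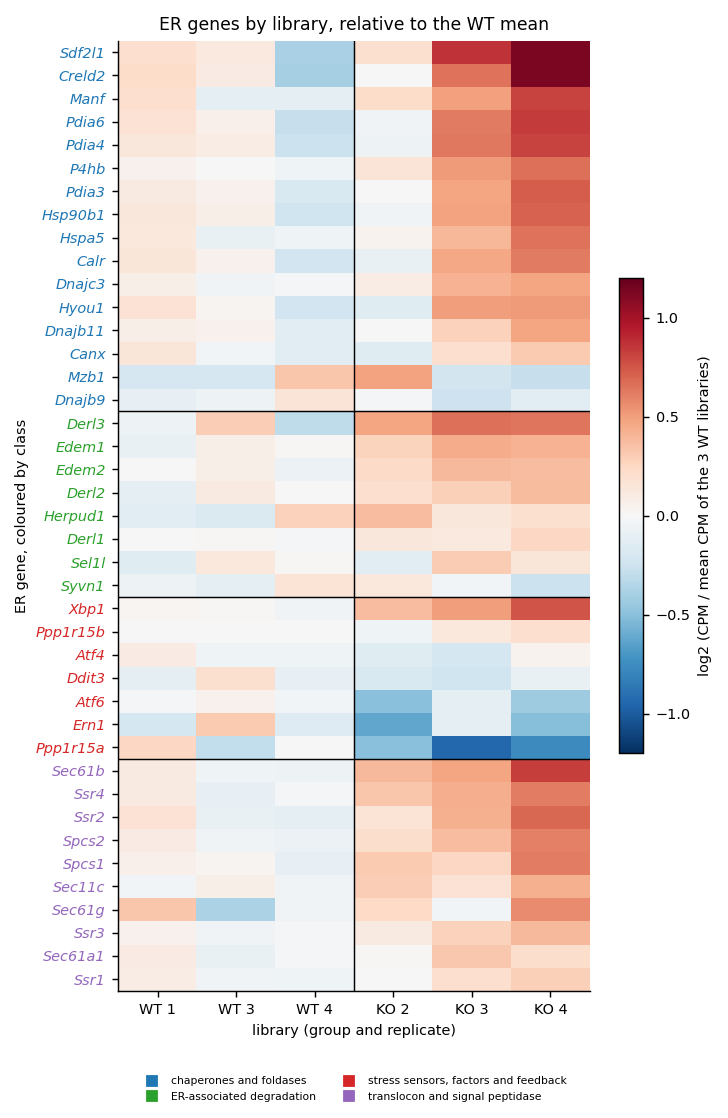
Log2 ratio of the CPM of each ER gene in each library to the mean of the 3 WT libraries, from blue (lower) to red (higher), with classes separated by lines. Most chaperones are near the WT mean in KO replicate 2 (class median -0.0040) and red in KO replicates 3 and 4 (0.48 and 0.66), whereas most translocon genes are red in all 3 KO libraries (0.23, 0.30 and 0.59).

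Dnajb9 and Mzb1 departed from the other chaperones. Dnajb9, a co-chaperone that returns IRE1 to its inactive state, lay at 40.8, 41.9 and 48.8 CPM in WT replicates 1, 3 and 4 and at 43.3, 36.9 and 40.2 CPM in KO replicates 2, 3 and 4 (log2 fold change -0.13 ± 0.10, adjusted p = 0.477). Mzb1, a chaperone of B and plasma cells for immunoglobulin M, lay at 11.2, 11.2 and 16.2 CPM in WT and at 18, 11.1 and 10.7 CPM in KO, so that the extremes of the 6 libraries both belonged to KO (log2 fold change 0.04 ± 0.23, adjusted p = 0.942). Its value is uncertain, because 57.2% of its exon bases are shared on the same strand with the annotated gene SPATA24. Of the 8 plasma cell markers 0 were called, and they summed to 186 to 311 CPM in WT and 388 to 416 CPM in KO. Of the 8, 1 lay above all WT libraries in each KO library, against 14.4% of all genes. It was Jchain, the joining chain of polymeric antibodies (120 to 244 CPM and 321 to 380 CPM, edgeR adjusted p = 0.0892). Jchain made up most of the summed level in KO. Sdc1, a surface proteoglycan of plasma cells, had means of 8.13 ± 0.845 and 8.27 ± 1.95 CPM (SD, n = 3 each).

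Promoters of the list were searched for the DNA elements through which the unfolded protein response acts, in RefSeq sequences of 300 bases (250 before to 50 after the start, GRCm38.p6), which were found for 32 of the 41 genes. The ER stress response element (ERSE) reads CCAAT, a spacer of 9 bases of any kind and CCACG, and is bound by NF-Y together with ATF6 or XBP1. An exact match was found on either strand in 9 of the 32 promoters (28.1%), against 0.119% of all 32851 promoters in the table, or 37 genes in all. The related ERSE-II (ATTGG, any base, CCACG) was found in 2, Herpud1 and Dnajb11, against 0.0365% of all promoters. The unfolded protein response element TGACGTGG was found in 0 (0.676% of all promoters), and the amino acid response element TGATGNAA in Herpud1 (3.97% of all promoters). The matches are descriptions of the letters and not tests of binding. They are shown because they mark which members carry an exact match. Elements that differ from these letters were not searched for, so members without a match may still carry one. Capitals mark the fixed letters, each match is read in the orientation of the motif, and positions count from the start site.

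Hspa5 (chr2:34772025-34772043, gene strand, -65 to -47): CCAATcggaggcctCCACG
Hsp90b1, nearer element (chr10:86705533-86705551, opposite strand, -107 to -89): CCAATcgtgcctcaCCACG
Hsp90b1, farther element (chr10:86705638-86705656, gene strand, -212 to -194): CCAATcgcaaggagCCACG
Calr (chr8:84847075-84847093, opposite strand, -162 to -144): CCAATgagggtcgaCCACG
Canx (chr11:50325800-50325818, gene strand, -145 to -127): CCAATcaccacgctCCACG
Pdia6 (chr12:17266491-17266509, gene strand, -98 to -80): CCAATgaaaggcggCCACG
Dnajc3 (chr14:118937827-118937845, gene strand, -105 to -87): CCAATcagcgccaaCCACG
Creld2 (chr15:88819520-88819538, opposite strand, -126 to -108): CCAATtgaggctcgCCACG
Derl3 (chr10:75893242-75893260, opposite strand, -156 to -138): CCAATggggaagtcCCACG
Syvn1 (chr19:6046532-6046550, gene strand, -44 to -26): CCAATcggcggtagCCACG
Herpud1, ERSE-II (chr8:94386377-94386387, gene strand, -52 to -42): ATTGGgCCACG
Dnajb11, ERSE-II (chr16:22857852-22857862, gene strand, 8 to 18): ATTGGcCCACG

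The promoter of Hspa5, the classical target of the response, is given whole for context (chr2:34771840-34772139, plus strand). The fixed letters of its exact match are in capitals.

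Hspa5 promoter: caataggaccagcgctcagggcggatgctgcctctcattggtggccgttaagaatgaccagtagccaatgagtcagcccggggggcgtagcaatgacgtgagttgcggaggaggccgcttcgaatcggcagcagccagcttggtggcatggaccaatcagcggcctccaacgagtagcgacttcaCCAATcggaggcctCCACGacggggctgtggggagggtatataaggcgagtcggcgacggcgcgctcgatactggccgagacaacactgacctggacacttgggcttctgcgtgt

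The promoters of the called genes Xbp1, Sec61b, Ssr4 and Ppp1r15a held no exact match to these 4 motifs in this window. Members with an exact ERSE or ERSE-II match (11 genes) had a median log2 fold change of 0.36, and members with a promoter and no match (21 genes) of 0.33. In edgeR 0 of the 11 and 4 of the 21 passed the test, against 2.46% of all genes. Of the 11, 3 were higher at an unadjusted p under 0.05 (against 11.7% of all genes). DESeq2 called 2 of them, Creld2 and Dnajc3 (against 12.6% of the genes with an adjusted p), and limma 0 (against 6.23% of all genes). By library, the 11 had medians of 0.00016, 0.41 and 0.62 in KO replicates 2, 3 and 4 relative to the WT mean, and the 21 had 0.16, 0.30 and 0.42. The difference between these groups of genes was not tested.

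**Figure D5:**
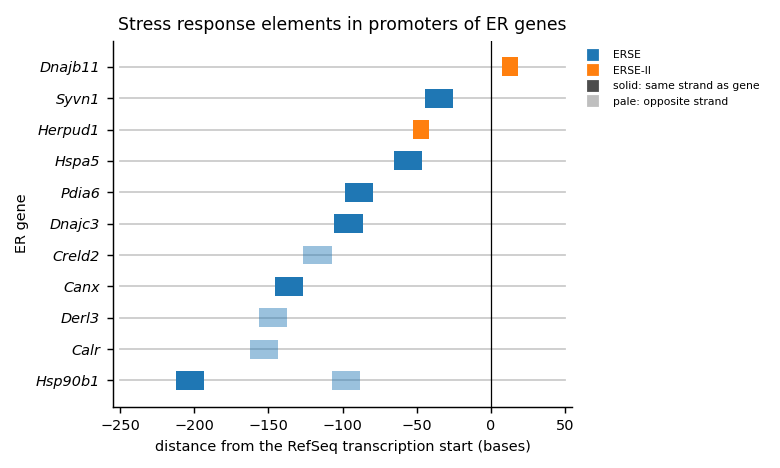
Position of each exact ERSE (blue) and ERSE-II (orange) match in bases from the RefSeq transcription start, with a grey line for the window searched. Solid bars lie on the gene's strand and pale bars on the opposite strand. All ERSE matches lie before the start, between -212 and -26, and the ERSE-II of Dnajb11 lies after it.

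Translocon and signal peptidase genes were higher in KO for 10 of 10 by the sign of the log2 fold change (against 48.9% of all genes). In edgeR 2 rose and 8 did not pass, where 0.938% of all genes were called higher. An unadjusted p under 0.05 was reached by 7, all higher (against 11.7% of all genes). Sec61b (ENSMUSG00000053317, chromosome 4, 47474658 to 47483242), the β subunit of the channel through which new chains enter the ER, lay at 78.7, 70.8 and 69.9 CPM in WT replicates 1, 3 and 4 and at 95.5, 101 and 130 CPM in KO replicates 2, 3 and 4. All KO libraries were above all WT libraries, and KO replicate 4 stood highest. The log2 fold change was 0.57 ± 0.12 (SE), 1.49-fold with a 95% interval from 1.23 to 1.79-fold (edgeR adjusted p = 0.0463), and correction for length and GC content ended the call (0.51, adjusted p = 0.0640; range over all alternatives 0.000124 to 0.154). Ssr4 (ENSMUSG00000002014, chromosome X, 73787028 to 73790830), the δ subunit of the translocon-associated protein complex, lay at 69.3, 60.1 and 63.8 CPM in WT and at 81.3, 87.1 and 98.7 CPM in KO, again without overlap. Its log2 fold change was 0.47 ± 0.10 (SE), 1.38-fold with a 95% interval from 1.19 to 1.61-fold (adjusted p = 0.0460), and scaling by library totals ended the call (0.39, adjusted p = 0.0525; range over all alternatives 0.0016 to 0.157).

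The other subunits had smaller or less certain differences. Spcs1 and Spcs2, accessory subunits of the signal peptidase, had log2 fold changes of 0.40 ± 0.11 and 0.41 ± 0.11 (adjusted p = 0.0789 and 0.0818), and Sec11c, a catalytic subunit, of 0.30 ± 0.09 (adjusted p = 0.103). In all 3 of these genes every KO library was above every WT library. This held for 6 of the 10 genes of the class, against 14.4% of all genes. The value of Spcs1 is less certain, because 16.3% of its exon bases are shared with Glt8d1 on the opposite strand. Ssr2 and Ssr3 had 0.44 and 0.26 and Ssr1, the α subunit of the same complex as Ssr4, had 0.16. Sec61a1, the subunit that forms the pore, had 0.19 ± 0.10 and Sec61g, its γ partner, 0.28 ± 0.21, the latter with 89.5, 54.7 and 68.8 CPM in WT and 84.0, 69.4 and 105 CPM in KO. Genes of a single complex thus had log2 fold changes from 0.19 to 0.57 in the SEC61 channel and from 0.16 to 0.47 in the associated complex. The class median was 0.35, and unlike the chaperones its median in KO replicate 2 was away from the WT mean, at 0.23, against 0.30 and 0.59 in KO replicates 3 and 4.

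Genes of ER-associated degradation had a class median of 0.26, and 0 of 8 passed the test in edgeR (2.46% of all genes did). An unadjusted p under 0.05 was reached by 4, all higher (against 11.7% of all genes). DESeq2 and limma both called Edem1 and Edem2, against 12.6% of the genes with an adjusted p in DESeq2 and 6.23% of all genes in limma. Edem1 and Edem2, lectins that pick misfolded glycoproteins for disposal, came nearest. Edem1 lay at 207, 231 and 222 CPM in WT replicates 1, 3 and 4 and at 264, 300 and 294 CPM in KO replicates 2, 3 and 4, a log2 fold change of 0.38 ± 0.10 (SE), and Edem2 at 51.6, 54.2 and 49.3 CPM and at 60.5, 67.8 and 66.9 CPM, a log2 fold change of 0.33 ± 0.08. Neither overlapped between groups, and both had an edgeR adjusted p of 0.0666. The derlins, parts of the channel through which proteins leave the ER, had all KO libraries above all WT libraries. In the class 5 of 8 genes did, against 14.4% of all genes. Derl1 had a log2 fold change of 0.17, Derl2 of 0.29 and Derl3 of 0.59, the last at 1.91 to 2.89 CPM in WT and 3.26 to 3.71 CPM in KO.

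The ubiquitin ligase of the pathway differed less. Syvn1, the ligase HRD1, lay at 67.8, 65.0 and 79.1 CPM in WT and at 77.2, 69.0 and 59.1 CPM in KO (95% interval 0.809 to 1.16 times the WT level), and Sel1l, its adaptor, at 105, 127 and 117 CPM and at 106, 144 and 129 CPM (0.896 to 1.31 times). Herpud1, a stress-induced scaffold of the complex, lay at 81.3, 79.1 and 108 CPM in WT and at 116, 98.6 and 102 CPM in KO, where WT replicate 4 was within the KO range. Groups overlapped for all 3 genes.

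Libraries with and without Xist transcripts were also compared apart. Among those with Xist above 1 CPM (WT replicates 3 and 4 and KO replicate 2) the log2 ratio of the means was 0.38 for Xbp1, 0.44 for Sec61b, 0.39 for Ssr4 and -0.36 for Ppp1r15a. Among the others (WT replicate 1 and KO replicates 3 and 4) it was 0.61, 0.55, 0.42 and -1.10. For these 4 genes no KO level overlapped a WT level, so the direction had to be the same in both subsets. The median of the chaperones was 0.05 and 0.43 and that of the translocon class 0.27 and 0.36 in the same order. These subsets have 1 library in a group and no test.

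The list was set beside 73 other genes of the same pathway, of which 72 were tested. Of these 0 rose, 1 fell and 71 did not pass in edgeR, and the median log2 fold change was 0.14. The gene that fell was Atf3, a stress-induced transcription factor that is also an immediate early gene, from 64.8 ± 11.3 to 14.0 ± 0.779 CPM (SD, n = 3 each), 4.64-fold lower (adjusted p = 0.000185). The log2 fold change was above 0 for 15 of 15 further folding enzymes (median 0.23), 10 of 10 oligosaccharyltransferase subunits, which attach sugar chains to entering proteins (median 0.21), and 10 of 14 further translocation genes (median 0.23). It was above 0 for 8 of 13 further degradation genes (median 0.03) and 9 of 20 further sensors and effectors (median -0.04). Of all genes tested 48.9% were above 0. At an unadjusted p under 0.05, 23 of the 72 were higher (against 11.7% of all genes) and 5 were lower (against 12.2%). In either direction at an adjusted p under 0.05, edgeR called 1, DESeq2 10 and limma 5. The shares of the genes with an adjusted p that the same tools called were 2.46%, 12.6% and 6.23%. The counts at an adjusted p thus lay near the background, whereas the share higher at an unadjusted p was above it.

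Because the deleted locus encodes miR-181a and miR-181b, 3′ UTRs of the list were searched for matches to their shared seed (bases 2 to 8, in capitals).

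mmu-miR-181a-5p (chr2:38852741-38852763, plus strand): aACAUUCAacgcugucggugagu
mmu-miR-181b-5p (chr2:38853845-38853868, plus strand): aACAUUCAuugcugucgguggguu

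All 41 genes had an annotated 3′ UTR, and 12 (29.3%) held an 8mer, 7mer-m8 or 7mer-A1 match in the longest annotated one, against 24.2% of the 13744 tested genes with an annotated 3′ UTR. Xbp1, Sec61b, Ssr4 and Ppp1r15a held none. The 8mer, a match to the seed followed by A, was found in Hsp90b1, Dnajc3, Derl1 and Ssr1 (9.76%, against 6.11% of tested genes), and Hspa5 held a 7mer-A1. These sites are shown with the match in capitals, in GRCm38.

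Hsp90b1 (chr10:86690913-86690920, minus strand): aacattcctccTGAATGTAaatttgtacta
Dnajc3 (chr14:118979467-118979474, plus strand): ggaaggaagcaTGAATGTAgcagccaagca
Derl1 (chr15:57871648-57871655, minus strand): ctgacccacacTGAATGTAgtctttcagta
Ssr1 (chr13:37977562-37977569, minus strand): aatctgtcaagTGAATGTAaggatcacgag
Hspa5 (chr2:34776199-34776205, plus strand): acttaagtctcGAATGTAattggaatctt

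The 12 genes with a match had a median log2 fold change of 0.27 and 0 passed the test in edgeR (2.46% of all genes did). At an unadjusted p under 0.05, 5 were higher and 1 was lower, against 11.7% and 12.2% of all genes. DESeq2 called Edem1 and Dnajc3 (against 12.6% of the genes with an adjusted p), and limma called Edem1 (against 6.23% of all genes). The 29 genes without a match had a median of 0.33, and 4 passed. Of the genes with an 8mer, Hsp90b1 had 0.42, Dnajc3 0.34, Derl1 0.17 and Ssr1 0.16 (adjusted p between 0.113 and 0.354). Atf6, with 3 matches of the 7mer kinds, had -0.34, and Edem1, with as many, had 0.38.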

How the data were processed

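Raw counts per gene were deposited for 6 mouse bone marrow libraries, 3 WT and 3 KO, made by poly(A) selection per the labels' protocols. Per the submitters' processing notes, the tools were Trimmomatic 0.36, STAR 2.5.2b, featureCounts and Subread 1.5.2, with the build GRCm38. The sources used here do not give the annotation release, strandedness or handling of multi-mapping reads, so genes with overlapping or near-identical partners are uncertain: 15 of the 41 genes share exon bases with another annotated gene, and Calr and Spcs2 have a named pseudogene.

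Symbols, exon lengths and 3′ UTRs came from GENCODE M21 (GRCm38) and promoters and microRNAs from RefSeq (GRCm38.p6). Promoters were matched by symbol; Hyou1, Manf, Mzb1, Derl1, Atf6, Ppp1r15b, Sec61a1, Ssr2 and Sec11c had no entry. Counts were tested across all genes with edgeR 4.0.16 in R 4.3.3 (TMM scaling, filterByExpr, robust quasi-likelihood test, two-sided, Benjamini-Hochberg, threshold 0.05). CPM values use the library total times the TMM factor (Xist, Y-linked genes and floors use the total). Standard errors were derived from the F statistic. An exact permutation of 3 against 3 libraries cannot give a p below 0.1. In simulated KO against WT counts with 200 changed genes, 24.0% were recovered at 1.5-fold (mean of 6 false calls over 5 draws, 16632 genes) and 56.6% at 2-fold (mean of 10 false calls, 16642 genes). Alternatives were other scalings and filters, DESeq2 1.42.0, limma 3.58.1 with quality weights, a replicate block, an Xist covariate, removal of length and GC trends (splines with 5 degrees of freedom), omission of haemoglobin, mitochondrial and immunoglobulin genes, and each library left out.

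The genes and lists were chosen with earlier results of these data known. Values in every library were given for the called genes, for Hspa5, Xbp1, Atf4, Atf6, Ern1, Ddit3, Ppp1r15a and Mzb1, and for the highest member of each class per kb; other members with such values were chosen after their values were seen. No pair of libraries of a group was alike within sampling noise (chi-square per gene at least 26.7).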

Additional observations from a re-analysis of the deposited data

How the results depend on the processing

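The number of ER genes called was 4 over all 6 libraries. Without any filter on low counts it was 12, with 15 in DESeq2, 10 in limma and 0 with the Xist covariate, and it ranged from 0 (without replicate 1 or 4 of WT, or replicate 4 of KO) to 13 (without KO replicate 2) when a library was left out. For all genes, against 417, the numbers were 1492, 1641, 1057 and 209 under the same settings in the same order, and from 32 to 920 with a library left out. For the other genes of the pathway, against 1, the numbers were 10 with no filter, 10 in DESeq2, 5 in limma, 2 with length and GC correction and from 1 to 6 with a library left out. The cause of these shifts was not tested.

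With the replicate block, 14 ER genes and 8 other genes of the pathway were called, beside 571 of all genes (3.37%). Replicate numbers 3 and 4 occur in both groups, whereas number 1 occurs only in WT and number 2 only in KO. In this fit WT replicate 1 and KO replicate 2 each made up a block alone. The KO difference therefore rested on numbers 3 and 4, without KO replicate 2. Across genes, the deviations of the libraries with number 3 correlated at 0.21 and those with number 4 at -0.14. Pairs of WT and KO libraries with unlike numbers ranged from -0.21 to 0.15, so that number 3 was highest and number 4 within that range. These values do not settle whether the numbers mark pairs.

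No call of an ER gene reversed under any alternative that was run. Of the 4 called genes, each lost its call in 5 (Xbp1 and Ppp1r15a) or 6 (Sec61b and Ssr4) of the 16 alternatives. The share of higher calls among all genes was 159 of 417, but 87 of 490 with library totals, 169 of 338 with length and GC correction, 857 of 1641 in DESeq2 and 495 of 1057 in limma. Library totals moved the median of all genes to -0.08 and that of the ER genes to 0.25. The order of the class medians turned in some settings: the translocon class was above the chaperones with the Xist covariate (0.32 and 0.25), without KO replicate 3 (0.43 and 0.39) and without KO replicate 4 (0.26 and 0.25).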
